A study of Mus musculus with 9 samples.

Results

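The genes described here are the mouse zinc finger genes named Zfp and a number, as far as the epidermis of newborn mice gave a signal for them. A gene was taken if the array annotation gave it Zfp and digits as its only symbol, leaving aside Zfp36 and Zfp750. Each gene was read by its probe set of highest mean level, and the genes were chosen by that mean over the 9 arrays, which had to be above 4 on the log2 scale. Of 303 genes with such a symbol, 110 passed this floor and 193 did not, and 18194 genes were tested in all. The levels therefore chose these genes, and the levels of the group are a description of that choice.

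The arrays compared newborn mice labelled Alox12b-KO with mice labelled wildtype. Alox12b encodes 12R-lipoxygenase, an enzyme of the epidermal lipid barrier. Per the labels' protocols, heterozygous knockout mice were mated and the pups were genotyped and killed right after birth. Hot buffered saline loosened the trunk epidermis, which was then lifted off the dermis. The labels give the strain 129S6 for the wildtype mice and no strain for the knockout mice, and no sex for either group. There were 4 knockout and 5 wildtype arrays, called biological replicates in the labels, and no agent was given to either group.

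Most Zfp proteins carry tandem C2H2 zinc fingers, in which cysteines and histidines hold a zinc ion and each finger can touch a few bases of DNA. Many also carry a KRAB domain, which recruits the corepressor Trim28 and through it the histone methyltransferase Setdb1, and such proteins are known for silencing transposable elements and for guarding imprinted loci. Others of the name have no KRAB domain and act in transcription, splicing, ribosome assembly or translation, since the symbol records only the presence of a zinc finger.

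Keratinocyte markers were bright, as the label of the tissue says. The mean of 14 measured markers was 9.97 to 10.34 on the knockout arrays and 10.44 to 10.75 on the wildtype arrays. The groups did not overlap in that mean, although 0 of the 14 genes passed the limma test and 5 had an unadjusted p under 0.05. Of these 5, Dsc3 (-1.42), Trp63 (-1.42), Krt15 (-1.04) and Col17a1 (-0.89) were lower in knockout, and Ivl (0.5) was higher. The markers did not move together: Lor (0.03), Krt1 (0.03) and Krt10 (-0.07) hardly differed. Over the 14 genes 9 differences were under 0, with a median of -0.15. The Alox12b probe set read 11.13 ± 0.33 (SD, n = 4) on knockout and 10.91 ± 0.29 (SD, n = 5) on wildtype arrays (limma adjusted p = 0.547). The deleted part of the gene is not named in the labels, so this reading checks nothing. Xist, made by the inactive X chromosome, was high on every knockout array (9.99 to 10.20). Among wildtype arrays it was high on array 4 (10.95) and low on the other 4 (3.23 to 4.32). Sex therefore cannot be told apart from genotype except through wildtype array 4. Wildtype array 5 had the lowest mean of the fibroblast (4.99), Langerhans cell (4.90) and melanocyte (3.40) markers. Knockout array 4 had the highest mean of the fibroblast (8.44) and smooth muscle (5.55) markers. Cell makeup and RNA per cell cannot be told apart in these bulk samples.

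Among the 110 Zfp genes, Zfp707, Zfp160, Zfp263 and Zfp945 fell in the knockout epidermis and Zfp622 rose. Zfp160 and Zfp707 differed by -1.79 and -1.77 on the log2 scale, from knockout levels near the array medians. Zfp263 was 3.12-fold higher in wildtype, Zfp945 was 1.81-fold higher in wildtype, and Zfp622 was 1.66-fold higher in knockout. These 5 genes are 4.55% of the 110. The share called over all 18194 genes was 1.24%, and it was 2.27% over the 9335 genes with a mean above 4. By direction, 3.64% of the Zfp genes were lower and 0.909% higher, against 0.731% and 0.511% of all genes. The shares among genes with a mean above 4 were 1.34% lower and 0.932% higher. In counts over all genes, 133 were lower and 93 higher, and after quantile normalization 143 were lower and 147 higher. Leaving out 1 array at a time gave 33 to 181 genes lower and 29 to 127 higher, with the fewest in both directions without knockout array 2. A call means an adjusted p under 0.05 in limma, with Benjamini-Hochberg adjustment over all genes tested.

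Zfp707, a KRAB-type zinc finger protein gene on chromosome 15, read 3.82, 3.29, 3.33 and 3.38 on knockout arrays 1 to 4 and 5.21, 5.28, 5.13, 5.05 and 5.45 on wildtype arrays 1 to 5. All knockout values lay below all wildtype values, with little scatter in either group. The means were 3.46 ± 0.24 (SD, n = 4) and 5.22 ± 0.15 (SD, n = 5), a log2 difference of -1.77 (SE 0.14, limma adjusted p = 0.000289). Its other probe set, 1427093_at, with a mean of 4.17, differed by -1.28. The probe set used, 1441842_s_at, is of a class that can match more than a single transcript.

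Zfp160, another KRAB-type gene, lies on chromosome 17 and was read by 1452126_at. It read 3.38, 2.97, 3.57 and 3.20 on the knockout arrays and 4.82, 4.74, 4.83, 4.99 and 5.97 on the wildtype arrays. The groups did not overlap, and wildtype array 5 stood above the other wildtype arrays. The means were 3.28 ± 0.26 (SD, n = 4) and 5.07 ± 0.51 (SD, n = 5), a log2 difference of -1.79 (SE 0.24, limma adjusted p = 0.00818). A dimmer probe set of the gene, 1439073_at, had a mean of 2.26 and a difference of 0.03. The knockout means of Zfp160 and Zfp707 were close to the array medians of all probe sets, which ran from 3.14 to 3.31, so whether any transcript was read there was not tested.

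Zfp263 encodes a protein with SCAN and KRAB domains and lies on chromosome 16 (probe set 1447432_s_at). Its knockout values were 4.63, 4.44, 3.77 and 3.83 and its wildtype values 5.65, 5.58, 5.57, 5.60 and 6.64. Knockout arrays 1 and 2 were higher than arrays 3 and 4, wildtype array 5 was again the highest, and the groups did not overlap. The means were 4.17 ± 0.43 (SD, n = 4) and 5.81 ± 0.47 (SD, n = 5), a log2 difference of -1.64 (SE 0.26, limma adjusted p = 0.0165). The other probe set, 1453105_at, had a mean of 3.47 and a difference of -1.58. Without knockout array 4 the difference of Zfp263 was -1.53 and the call was lost (limma adjusted p = 0.059).

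Zfp945, on chromosome 17 (probe set 1437127_at), read 4.95, 4.88, 4.29 and 4.69 in knockout and 5.62, 5.77, 5.36, 5.49 and 5.57 in wildtype. The groups did not overlap, and here wildtype array 5 lay among the others. The means were 4.70 ± 0.30 (SD, n = 4) and 5.56 ± 0.15 (SD, n = 5), a log2 difference of -0.86 (SE 0.15, limma adjusted p = 0.0254). Leaving out knockout array 2 or 4, or wildtype array 1, 2 or 4, ended the call, with limma adjusted p between 0.0597 and 0.08. Its other probe sets, 1437128_a_at (mean 2.97) and 1441792_at (mean 2.72), differed by 0.12 and -0.18.

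Zfp622, on chromosome 15, was the brightest of the 110 genes on the probe set used, 1438000_x_at. That probe set is of a class that can match more than a single transcript. Zfp622 encodes a cytoplasmic factor for the late maturation of the large ribosomal subunit. It read 10.22, 10.42, 10.31 and 10.56 on the knockout arrays and 9.62, 9.65, 9.30, 9.80 and 9.88 on the wildtype arrays. Every knockout array was above every wildtype array. The means were 10.38 ± 0.14 (SD, n = 4) and 9.65 ± 0.22 (SD, n = 5), a log2 difference of 0.73 (SE 0.14, limma adjusted p = 0.0334). The other probe sets above the floor, 1425030_at (mean 5.86) and 1447775_x_at (mean 6.29), differed by 0.48 and 0.71 in the same direction. Those under the floor, 1446477_at (mean 2.68) and 1453158_at (mean 2.23), differed by 0.01 and 0.15. Without less specific probe sets the difference of Zfp622 was 0.48 and the gene was not called (limma adjusted p = 0.0957). The call was lost without knockout array 2, 3 or 4 or without wildtype array 1, 2, 3 or 4, with limma adjusted p between 0.0532 and 0.101.

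**Figure D1:**
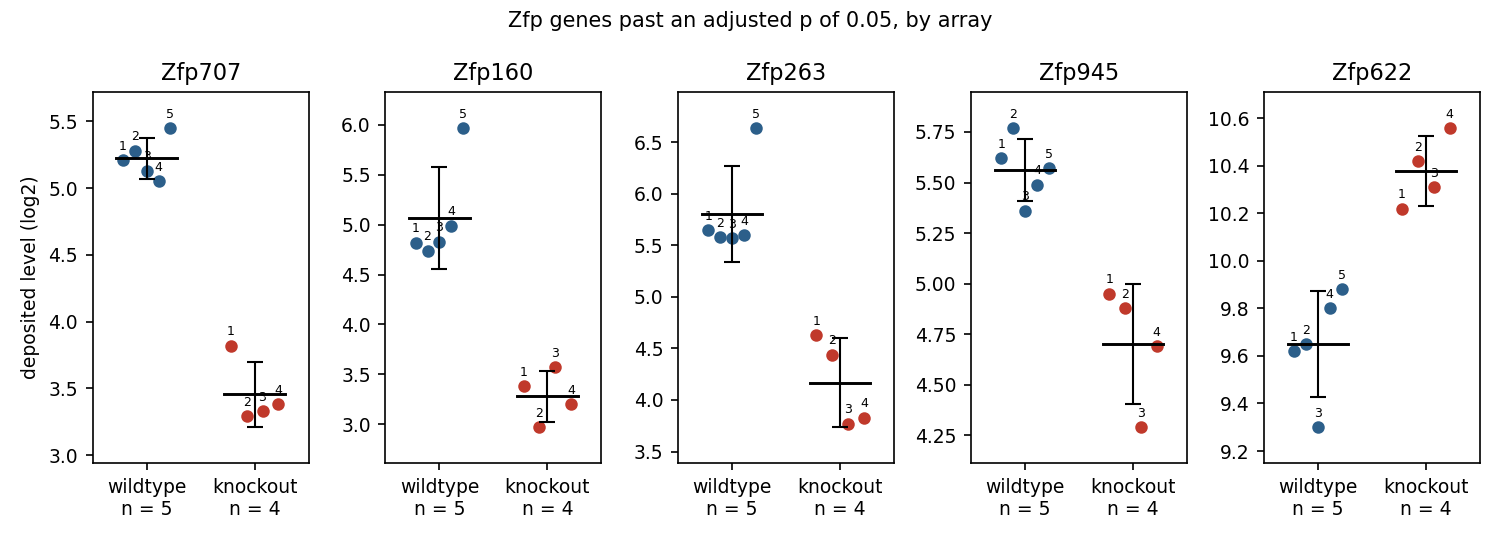
Log2 level of the 5 Zfp genes that passed the limma test, on each of the 4 knockout and 5 wildtype arrays (points with the replicate number), with group means (lines) and SD (bars); each panel has its own axis. The groups do not overlap for any of the 5 genes: Zfp707, Zfp160, Zfp263 and Zfp945 sit lower on the knockout arrays, and Zfp622 sits higher (10.38 against 9.65).

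Promoter sequences are shown for 3 of the 5 called genes, Zfp160, Zfp263 and Zfp622, as the regulatory sequence next to the transcripts that differed between the groups. Zfp707 and Zfp945 are not shown. The windows hold the 250 bases before the start of the gene in RefSeq, build GRCm38.p6. Capitals mark the letters GGGCGG, a GC box, read on either strand (CCGCCC on the other), and the letters CCGGAAG, an ETS-type motif. Zfp160 is at chr17:21008691-21008940, Zfp263 at chr16:3743849-3744098 and Zfp622 at chr15:25984116-25984365, each on the plus strand.
Zfp160: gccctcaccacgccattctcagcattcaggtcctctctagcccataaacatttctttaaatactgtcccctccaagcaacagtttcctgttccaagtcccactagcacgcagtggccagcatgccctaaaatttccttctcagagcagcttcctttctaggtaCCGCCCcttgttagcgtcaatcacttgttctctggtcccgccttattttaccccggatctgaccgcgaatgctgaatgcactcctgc
Zfp263: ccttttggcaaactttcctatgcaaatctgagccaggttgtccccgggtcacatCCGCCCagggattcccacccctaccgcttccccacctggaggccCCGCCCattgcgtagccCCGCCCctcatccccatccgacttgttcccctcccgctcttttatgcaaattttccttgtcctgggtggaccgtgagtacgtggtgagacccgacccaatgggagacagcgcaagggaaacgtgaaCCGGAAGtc
Zfp622: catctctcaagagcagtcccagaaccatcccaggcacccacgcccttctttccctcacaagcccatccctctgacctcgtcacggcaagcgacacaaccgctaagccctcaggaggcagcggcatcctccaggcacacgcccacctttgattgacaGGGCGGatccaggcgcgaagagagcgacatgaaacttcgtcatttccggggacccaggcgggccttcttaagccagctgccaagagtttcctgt
The window of Zfp160 held 8 CpG pairs and 1 GC box. That of Zfp263 held 14 CpG pairs, 3 GC boxes and 1 ETS-type motif close to the start. The Zfp622 window held 14 CpG pairs and 1 GC box.

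A GC box was common in such windows, and the ETS-type motif was less so. Of the 110 genes, 87 had a promoter entry, counted here with Zfp945, whose window overlaps its own gene, with a median of 13 CpG pairs, against 16 for the 7545 genes with a mean above 4 and an entry. The GC box stood in 59.8% of the Zfp windows and in 61% of the windows of genes with a mean above 4. CCGGAAG stood in 18.4% and 14.7%, and TGCGCA, the core of an NRF1 motif, in 8.05% and 12.4%. TGANTCA, an AP-1 motif, stood in 6.9% and 4.56%, and TGACGTCA, a CRE, in 3.45% and 2.92%. Each motif was searched on both strands. A match describes the letters only.

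The differences of the 110 genes spread around a value slightly under 0. Their median log2 difference was -0.18 and the middle of the spread (the quartiles) ran from -0.484 to 0.0664, with a lowest of -1.79 and a highest of 1.08. The median of all genes with a mean above 4 was -0.10 and that of all genes 0.02. Of the Zfp genes 65.5% had a difference under 0, close to the 62.5% of genes with a mean above 4 and above the 46.5% of all genes. The median size of a difference, whatever its sign, was 0.302 for the Zfp genes with a median SE of 0.185, and 0.238 for genes with a mean above 4 with a median SE of 0.175.

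Groups that did not overlap were counted too. On 22 of the 110 genes (20%) every knockout array was below every wildtype array, and on 4 (3.64%) every knockout array was above. Among genes with a mean above 4 the shares were 8.85% and 3.28%, and among all genes 5.14% and 3.14%. An unadjusted p under 0.05 with a lower knockout mean was found for 30.9% of the Zfp genes, 18.3% of genes with a mean above 4 and 10.7% of all genes. In the other direction these shares were 6.36%, 6.94% and 7.08%. The floor was set on the mean of all 9 arrays, and 9 of the 110 genes had a knockout mean at or under 4, among them Zfp160 and Zfp707, while none had a wildtype mean that low. These counts thus hold genes that passed only through the wildtype arrays. After quantile normalization 14 genes (background 7.08%) were lower without overlap and 6 (background 5.46%) higher, the median of the Zfp genes was -0.07 and that of genes with a mean above 4 moved from -0.10 to 0.01.

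**Figure D2:**
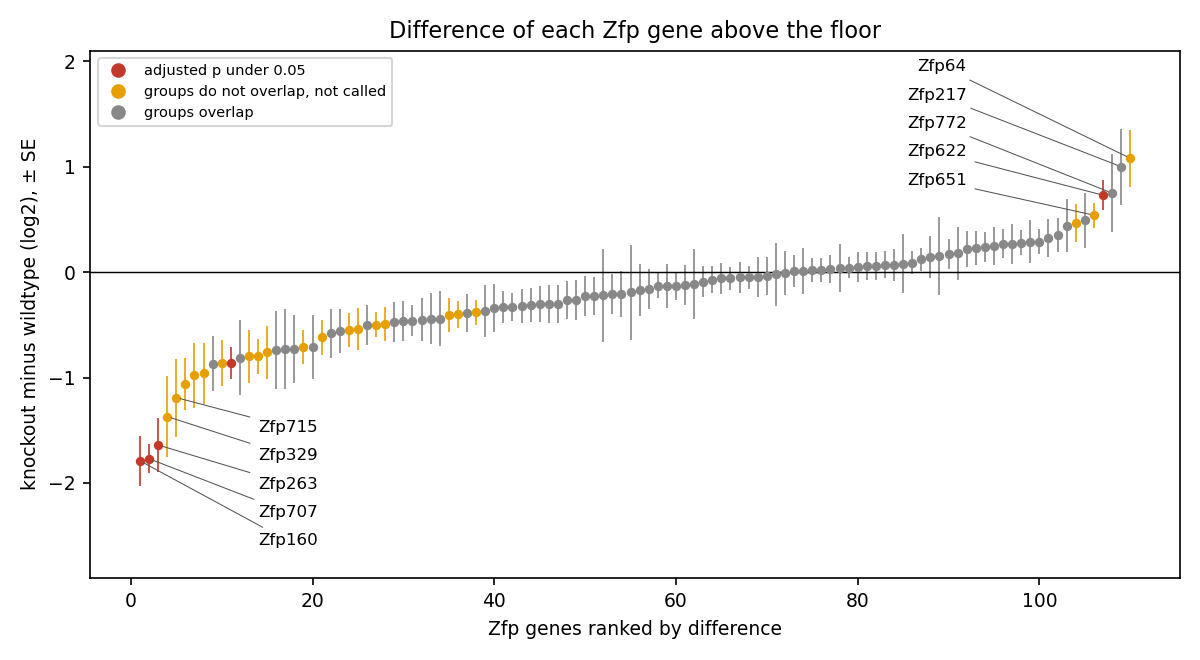
Log2 difference, knockout minus wildtype, of each of the 110 Zfp genes (points, ± SE of the limma fit), ranked from the lowest (Zfp160, -1.79) to the highest (Zfp64, 1.08). Red points passed the limma test, orange points did not but have groups that do not overlap, and grey points overlap. Points below 0 make up 65.5% of the genes.

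A set of 22 genes known as KRAB-type, like the other role sets used here, was put together by hand from known function after values had been seen, so it is a description. Whether the other genes, Zfp945 among them, carry a KRAB domain was not determined. The set had 3 called genes, all lower (Zfp707, Zfp160 and Zfp263), where 1.34% of genes with a mean above 4 were called lower. It had 18 differences under 0 and a median of -0.40, against -0.10 for genes with a mean above 4. The groups did not overlap on 8 of the 22, lower in knockout (Zfp707, Zfp160, Zfp263, Zfp386, Zfp445, Zfp266, Zfp212 and Zfp655), and on Zfp420 higher. Among genes with a mean above 4 these shares were 8.85% lower and 3.28% higher. Zfp707, Zfp160 and Zfp386 had a knockout mean under 4 and passed the floor only through the wildtype arrays.

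Zfp386 missed the threshold by little. It read 3.62, 4.05, 3.54 and 3.82 in knockout and 4.36, 4.41, 4.89, 4.26 and 4.84 in wildtype, a log2 difference of -0.80 (SE 0.17, limma adjusted p = 0.0517). Zfp445, a protein that guards DNA methylation at imprinted loci, read 7.17, 7.06, 7.42 and 6.60 in knockout and 7.60, 7.69, 7.52, 7.60 and 8.71 in wildtype. The groups came close to each other, and wildtype array 5 stood far above. The difference was -0.76 (SE 0.25, limma adjusted p = 0.175), and its other probe sets above the floor had a difference of -0.27 (mean 5.09) and 0.06 (mean 4.48).

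Zfp266 was the second brightest of the genes, at a mean of 9.48. Its knockout values of 9.27, 9.22, 9.24 and 9.0 lay just under the wildtype values of 9.49, 9.63, 9.35, 9.67 and 10.43. Wildtype array 5 again was highest (difference -0.54, SE 0.20, limma adjusted p = 0.205). Its probe sets disagreed, with a difference of -3.0 on 1457913_at (mean 5.55), -0.65 on 1431206_at (mean 5.53) and 0.52 on 1454812_at (mean 6.41), so the direction depends on the probe set read. Zfp568, which represses a placental promoter of Igf2, differed by -0.21 (limma adjusted p = 0.581). Zfp420, lower in wildtype without overlap, differed by 0.47 (limma adjusted p = 0.216).

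Genes of RNA, ribosome and translation functions were 7 of the 110. By limma 1 was called higher (Zfp622) and 0 lower, against 0.932% and 1.34% of genes with a mean above 4. At an unadjusted p under 0.05, 2 were higher and 0 lower, against 6.94% and 18.3%. The 7 genes had 3 differences under 0 and a median of 0.07. Zfp598, the ubiquitin ligase that marks collided ribosomes, differed by 0.28 (limma adjusted p = 0.265). Zfp593, another factor of large ribosomal subunit assembly, differed by 0.07 (limma adjusted p = 0.836). Neither passed the test that Zfp622 passed. Zfp638, an RNA-binding protein of nuclear speckles, differed by -0.73 (limma adjusted p = 0.343). Zfp326, which couples transcription to splicing, read 5.63, 5.60, 3.5 and 3.71 on knockout arrays 1 to 4, and the lower of knockout arrays 1 and 2 thus stood 1.89 above the higher of arrays 3 and 4. Its group difference was -0.22 (limma adjusted p = 0.82).

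The set of 20 other chromatin and transcription regulators had 0 genes called by limma, 12 differences under 0 and a median of -0.07. The groups did not overlap on 5 of them, lower in knockout (Zfp24, Zfp362, Zfp644, Zfp148 and Zfp503), and on Zfp64 higher, against the same 8.85% and 3.28%. At an unadjusted p under 0.05, 6 of the 20 were lower and 2 higher, against 18.3% and 6.94% of genes with a mean above 4. Zfp148, a Krüppel-type factor that binds GC-rich promoters, differed by -0.49 (limma adjusted p = 0.175). Zfp410, known as the activator of Chd4, differed by -0.34 (limma adjusted p = 0.466), and Chd4 itself read 7.89 in knockout and 7.84 in wildtype.

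Zfp64, a transcription factor, had the highest difference of the 110 genes and did not pass the test. It read 6.71, 6.76, 5.32 and 5.82 in knockout and 5.03, 5.12, 4.98, 5.14 and 5.07 in wildtype. The wildtype arrays were tight (SD 0.06), the knockout arrays were scattered (SD 0.70), and the groups did not overlap. The difference was 1.08 (SE 0.27, limma adjusted p = 0.0829), and without knockout array 3 it was 1.36 with a limma adjusted p of 0.0165. The gene also passed the limma test after quantile normalization (difference 1.19, adjusted p = 0.0289). When its probe sets were averaged it passed with a difference of 0.66 (limma adjusted p = 0.0331). With array weights, which called 712 genes higher over all genes, Zfp64 passed with a difference of 1.53 (limma adjusted p = 0.00038). It did not pass after median centring (limma adjusted p = 0.129) or with the replicate block (limma adjusted p = 0.132). Trend and robust settings (limma adjusted p = 0.0807) and Xist as covariate (limma adjusted p = 0.664) gave no call. Leaving out any other single array gave no call either (limma adjusted p between 0.104 and 0.176).

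Zfp217, a corepressor-bound factor whose human counterpart is amplified in breast cancers, read 8.83, 8.93, 7.78 and 7.82 in knockout and 7.03, 7.16, 6.76, 7.24 and 8.50 in wildtype. Wildtype array 5 lay within the knockout range, and the other wildtype arrays lay below it. The difference was 1.00 (SE 0.36, limma adjusted p = 0.201), and without wildtype array 5 it was 1.29 with a limma adjusted p of 0.0486. Leaving out any other single array gave no call (limma adjusted p between 0.202 and 0.318). Zfp772 read 7.95, 8.02, 6.64 and 6.67 in knockout and 6.94, 6.79, 7.12, 6.36 and 5.64 in wildtype, with overlapping groups (difference 0.75, limma adjusted p = 0.322). Zfp651, a BTB-type factor, read 4.85, 5.02, 4.88 and 5.28 against 4.48, 4.65, 4.45, 4.41 and 4.34, without overlap (difference 0.54, limma adjusted p = 0.0625). It differed by 0.66 after quantile normalization (limma adjusted p = 0.041). With trend and robust settings its limma adjusted p was 0.105, and with the replicate block 0.195. Array weights called 8 Zfp genes higher and 25 lower. Among the higher were Zfp217 (difference 1.63, limma adjusted p = 0.00124), Zfp772 (1.09, 0.0164) and Zfp651 (0.47, 0.0118).

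Among the falls that missed the threshold, the 4 of greatest size were those of Zfp329, Zfp715, Zfp871 and Zfp24. Zfp329 read 4.23, 4.49, 5.17 and 3.84 in knockout and 5.57, 5.58, 5.18, 5.54 and 7.17 in wildtype (difference -1.37, limma adjusted p = 0.115). Zfp715 read 4.98, 5.20, 4.91 and 3.23 against 6.08, 5.41, 5.54, 5.58 and 6.25 (difference -1.19, limma adjusted p = 0.144). The groups did not overlap on either gene, and the ends of the range were wildtype array 5 and knockout array 4.

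Zfp871 read 6.44, 6.69, 7.02 and 6.02 in knockout and 7.52, 7.51, 7.40, 7.21 and 8.38 in wildtype (difference -1.06, limma adjusted p = 0.0765). Its other probe sets above the floor, with means of 6.84 and 5.54, differed by -1.24 and -1.08. Zfp24, a SCAN-type factor needed for myelination, read 4.29, 4.44, 4.94 and 4.2 against 5.21, 5.10, 5.35, 4.94 and 6.61 (difference -0.98, limma adjusted p = 0.159). To the decimals given the groups of Zfp24 touch, since knockout array 3 and wildtype array 4 both read 4.94. On both genes the same arrays, wildtype 5 and knockout 4, held the highest and the lowest value.

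Zfp185 stands apart by function, since it encodes a LIM-domain protein of the actin cytoskeleton and is the only one of the 110 genes on the X chromosome. It was the third brightest of them, with 8.90, 8.81, 8.74 and 8.03 in knockout and 8.65, 8.58, 8.69, 8.84 and 9.11 in wildtype. The groups overlapped (difference -0.16, SE 0.19, limma adjusted p = 0.687). By mean level the 5 brightest were Zfp622 (9.97), Zfp266 (9.48), Zfp185 (8.71), Zfp217 (7.78) and Zfp445 (7.49), and only the first 3 were above 8.

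Called genes lay at both ends of the range of levels. Of 44 Zfp genes with a mean from 4 to 5, 2 were called lower, and of 35 from 5 to 6 also 2. Of 19 from 6 to 7, 0 were called by limma, and of 12 above 7, 1 was called higher. An unadjusted p under 0.05 in either direction was found for 11, 17, 7 and 6 genes in this order of classes. Among all genes with a mean above 4, 18.3% were lower and 6.94% higher at that p. The background in these classes of level was 1.67%, 2.41%, 2.19% and 2.61% called. The median difference of the Zfp genes was -0.15, -0.32, -0.12 and -0.18 in the same order, against -0.02, -0.14, -0.14 and -0.10 over all genes of the class.

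**Figure D3:**
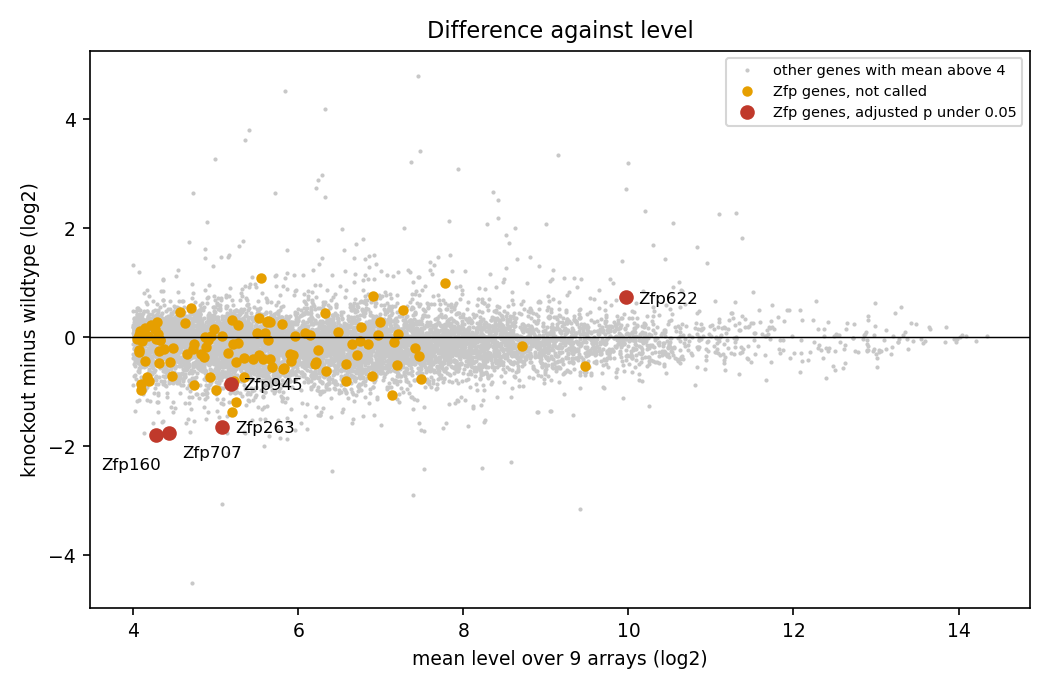
Log2 difference, knockout minus wildtype, against the mean log2 level over 9 arrays for the 110 Zfp genes (orange, red where called) and the other genes with a mean above 4 (grey). Zfp160, Zfp707, Zfp263 and Zfp945 lie at levels between 4.27 and 5.18, and Zfp622 at 9.97.

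Genes near the floor are given as values. Just above it were Zfp790 (mean 4.05, difference -0.04), Zfp524 (4.07, -0.23) and Zfp511 (4.07, -0.26). Just below it were Zfp809 (mean 3.94, difference -0.81), which silences retroviral DNA in stem cells, Zfp991 (3.89, -0.36) and Zfp799 (3.87, -1.96). Zfp799 read 2.78, 2.1, 3.14 and 3.09 on the knockout arrays and 4.07, 4.59, 4.49, 4.47 and 6.07 on the wildtype arrays. Its fall passed the limma test (adjusted p = 0.0334), as did those of Zfp950 (mean 3.39, difference -1.27, adjusted p = 0.0416) and Zfp869 (mean 2.81, difference -0.57, adjusted p = 0.0321), the latter pair named after their values were seen. The call of Zfp799 was lost without knockout array 1, 2 or 4 or wildtype array 2, 3 or 4 (limma adjusted p between 0.0567 and 0.0994). That of Zfp809 was gained without knockout array 3 (difference -1.0, limma adjusted p = 0.0165). Together, the 193 genes at or under the floor had 3 called lower (1.55%) and 0 called higher by limma. The shares of all genes, at any level, were 0.731% lower and 0.511% higher. At an unadjusted p under 0.05, 26 of the 193 were lower (13.5%) and 6 higher (3.11%), against 10.7% and 7.08% of all genes. A background of genes at or under the floor alone was not counted.

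The probe sets of a gene did not always give the same reading. Several probe sets were found for 65 of the 110 genes. Of their other probe sets 38 were above the floor, and 26 of those had the sign of the probe set used. Where the gene differed by over 0.5, 11 of 14 had the same sign. Zfp207, a spindle assembly factor, differed by -0.21 on the probe set used and by -1.34 on another, 1455092_at, with a mean of 5.73. For 19 of the 110 genes the probe set used was of a class that can match several transcripts, and 3 of the 5 called genes (Zfp707, Zfp263 and Zfp622) were read that way.

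By position, 30 of the 110 genes lay on chromosome 7, where 0 were called by limma and the median difference was -0.05. The other genes there with a mean above 4 had 2.73% called and a median of -0.02. An unadjusted p under 0.05 was found for 5 of the 30. On any chromosome, 18.3% of genes with a mean above 4 were lower and 6.94% higher at that p. Chromosome 17 held 11, of which Zfp160 and Zfp945 were called lower, against 2.7% of the other genes there called in either direction. On the same chromosome Zfp871 differed by -1.06, Zfp101 by -0.86 (limma adjusted p = 0.0922) and Zfp51 by -0.74 (limma adjusted p = 0.322), yet the median of the 11 was -0.06, equal to that of the other genes there. Zfp genes often lie side by side in clusters, and 42 of the 110 had another Zfp gene as the next coding gene. Of the called genes this held for Zfp707 alone, whose neighbour Zfp623 differed by 0.25 (limma adjusted p = 0.479).

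Wildtype array 5 carried much of the spread. The median level of the 110 genes was 5.12, 5.19, 5.34 and 5.23 on the knockout arrays and 5.50, 5.39, 5.34, 5.43 and 5.70 on the wildtype arrays. The highest knockout value equalled the lowest wildtype value to the decimals given, and wildtype array 5 was highest. Of the 110 genes, 52 (47.3%) had their highest value on wildtype array 5, against 36.1% of genes with a mean above 4. The median excess of that array over the mean of the other wildtype arrays was 0.287 for the Zfp genes and 0.105 for genes with a mean above 4. The lowest value was on knockout array 4 for 32 genes (29.1%), against 30.9% of genes with a mean above 4.

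Without wildtype array 5 the called genes were Zfp160, Zfp263, Zfp707 and Zfp945 lower and Zfp622 and Zfp217 higher. The median difference was then -0.11, against -0.08 for genes with a mean above 4, and 61.8% of the Zfp genes were under 0, against 60.6%. Without knockout array 4, 2 genes were called lower (Zfp160 and Zfp707) and 0 higher by limma. Without both arrays, a choice made after the data had been seen, 3 were lower (Zfp160, Zfp263 and Zfp707) and 2 higher (Zfp622 and Zfp217). Zfp160 and Zfp707 were called lower whichever single array was left out. The low fibroblast and Langerhans cell markers of wildtype array 5 and the high fibroblast markers of knockout array 4 move with these values, and their part in them was not tested.

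**Figure D4:**
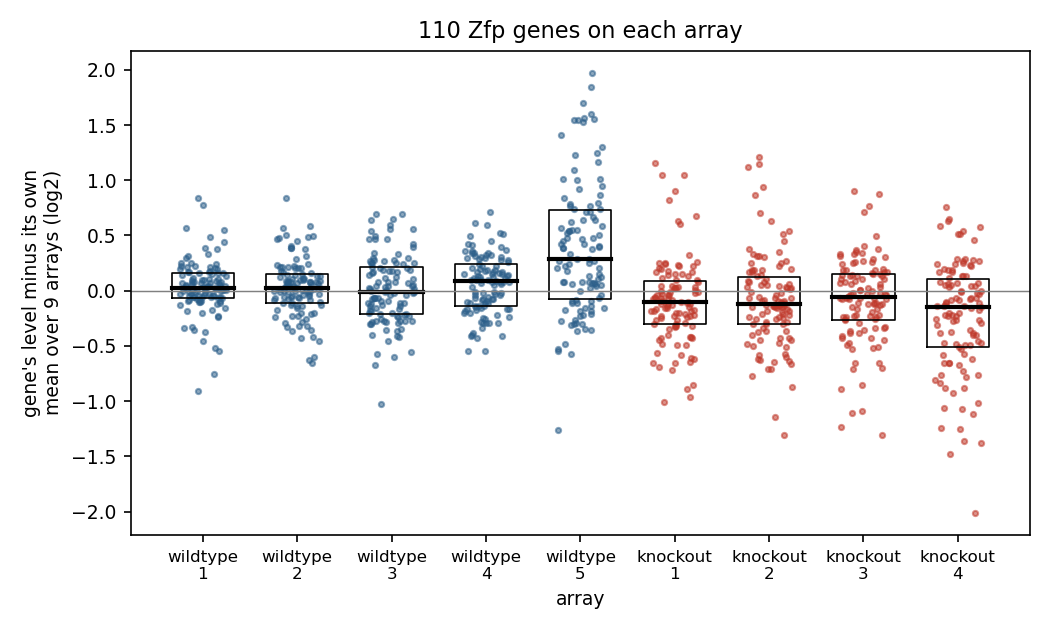
Level of each of the 110 Zfp genes minus its own mean over 9 arrays (log2, points) on each wildtype and knockout array; thick lines are medians and boxes span the quartiles. The medians lie between -0.15 and -0.06 on the knockout arrays and between -0.01 and 0.29 on the wildtype arrays, with wildtype array 5 highest.

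The knockout arrays also split into pairs on some genes. On 12 of the 110 (10.9%) the lower of knockout arrays 1 and 2 was above the higher of arrays 3 and 4 by over 0.5, against 11.8% of genes with a mean above 4. Zfp326 (1.89), Zfp772 (1.28), Zfp217 (1.01) and Zfp64 (0.89) were among them. Whatever the size of the gap, 28.2% of the Zfp genes were higher on arrays 1 and 2 and 22.7% lower, against 41.4% and 17.3%.

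The cofactors of KRAB proteins were measured from a list of corepressor and heterochromatin genes. Of 25 measured, 5 had a mean at or under 4 and 0 passed the limma test. An unadjusted p under 0.05 was found for 5, and 21 had a difference under 0, with a median of -0.26. Among genes with a mean above 4, 62.5% had a difference under 0, with a median of -0.10. At an unadjusted p under 0.05, 18.3% of those genes were lower and 6.94% higher. Trim28, the corepressor that KRAB domains bind, read 7.96 ± 0.13 (SD, n = 4) in knockout and 8.34 ± 0.07 (SD, n = 5) in wildtype, a log2 difference of -0.38 (limma adjusted p = 0.108). Setdb1, the methyltransferase it recruits, read 5.10 against 5.34 (limma adjusted p = 0.599). The mean of the list ran from 5.27 to 5.49 on the knockout arrays and from 5.41 to 5.91 on the wildtype arrays, overlapping, with wildtype array 5 highest as for the Zfp genes.

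Genes of other C2H2 symbol families gave calls in both directions. These genes were picked by symbol and not by domain, so Zbtb11os1 and Zfhx2os are among them. Of 109 measured, 2 were higher (Zbtb21, difference 1.06, and Zkscan6, 0.63) and 3 lower (Rbak, -2.12, Zbtb16, -1.44, and Zbtb48, -0.65), against 0.511% higher and 0.731% lower of all genes, with a median difference of -0.04. No floor was set for these, and 46 of the 109 had a mean at or under 4. Rbak, a KRAB zinc finger protein that binds the retinoblastoma protein, had a limma adjusted p of 0.00099. Zbtb16 encodes PLZF, a BTB-type repressor (limma adjusted p = 0.000841).

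Other lists were read beside these values. Of all genes, 0.511% were called higher and 0.731% lower. Of 17 immediate early genes, 12 were called higher, and the mean of the 17 was 9.49 to 9.83 on knockout and 7.85 to 8.39 on wildtype arrays. A list of 10 genes was put together for RNAs held in the nucleus, but where their RNA lay was not measured. Of these 10, 3 were called lower: Neat1 (-3.15), Rsrp1 (-2.29) and Luc7l2 (-1.29). Xist, also on that list, differed by 4.79 (limma adjusted p = 0.107). Heat shock genes had 0 of 8 called by limma and 1 at an unadjusted p under 0.05, with means of 8.29 to 10.19 and 8.77 to 9.15. Sebocyte markers, 5 measured, had a mean of 5.37 to 5.70 on knockout and 5.70 to 6.48 on wildtype arrays, and 1, Far2, fell (difference -1.81, limma adjusted p = 0.02). Of 14 hair follicle markers 0 passed the limma test and 5 had an unadjusted p under 0.05, with means of 4.43 to 5.23 and 4.89 to 5.42, and Tchh differed by -1.36 (limma adjusted p = 0.0556). Of 6 adipocyte markers, 4 with a mean at or under 4, 0 passed the limma test and 1 had an unadjusted p under 0.05, with means of 3.36 to 3.84 and 3.48 to 6.28. The part of these lists and of the keratinocyte markers in the values of the Zfp genes was not tested. With the Xist level as a covariate, 1 of the 5 called Zfp genes (Zfp707) was still called. The difference of Zfp160 was then -1.64 (limma adjusted p = 0.353), that of Zfp263 -1.39 (0.492), that of Zfp945 -0.79 (0.516) and that of Zfp622 0.64 (0.574). Among wildtype arrays Xist was high on array 4 alone, so the covariate nearly repeats genotype and this fit cannot separate sex from genotype.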

How the data were processed

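Per the labels' protocols, cRNA of newborn trunk epidermis, primed at the 3′ end, was measured on Affymetrix U430 2.0 mouse arrays. The authors deposited log2 expression values of 45037 probe sets on 9 arrays, from 1.43 to 14.46. The submitters' processing notes name affy, without a version, and neither they nor the labels give the normalization. Values were used as deposited. No array was a copy of another, with at most 124 identical values between arrays of a group. The small number of arrays limits the precision.

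The platform annotation named 1 gene for 34945 probe sets and several for 932, and did not list 9160. The table of RefSeq genes and promoters (GRCm38.p6) gave chromosomes, neighbours and sequences, and matched 110 of the 110 genes. Genes were tested with limma 3.58.1 (lmFit, eBayes, genotype as the only term) in R 4.3.3, and p-values were adjusted over all 18194 genes. The code was tested on simulated data.

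Named genes were those called without overlap, the 5 brightest and the 3 nearest the floor on each side. Also named were the 4 uncalled ones of greatest fall and of greatest rise, called genes of other C2H2 symbol families, and Trim28 and Setdb1. The text also names genes chosen after their values were seen, such as those given by role, by position, as pairs of knockout arrays or for a lost call. The genes and lists were chosen with earlier results of these data known. Protein sequences were planned and not used here. Alternatives were other probe set summaries, floors, thresholds and normalizations, limma with trend and robust settings, array weights, Xist as covariate, a replicate block, and leaving out arrays.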

Additional observations from a re-analysis of the deposited data

Results flagged for a closer look

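Among the Zfp genes named by the rule for named genes, 8 had wildtype array 5 far from the other wildtype arrays, by the ratio of its gap to the range of the group. Zfp160 read 5.97 there against 4.74 to 4.99 on the others, and Zfp263 read 6.64 against 5.57 to 5.65. Zfp217 read 8.50 against 6.76 to 7.24, Zfp445 8.71 against 7.52 to 7.69, and Zfp329 7.17 against 5.18 to 5.58. Zfp871 read 8.38 against 7.21 to 7.52 and Zfp24 6.61 against 4.94 to 5.35, and Zfp799, a gene under the floor, read 6.07 against 4.07 to 4.59. On 2 genes knockout array 4 stood apart: Zfp715 read 3.23 against 4.91 to 5.20 on the other knockout arrays, and Zfp790 read 4.22 against 3.94 to 3.98. The limit used flags about 5% of groups by chance. That rate counts any array of a group, so it is not the rate for wildtype array 5 alone. By the same limit wildtype array 5 was far above the others on 16 of the 110 Zfp genes (14.5%) and on 8.30% of genes with a mean above 4.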

How the results depend on the processing

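Limits. There were 4 and 5 arrays, signal over background was not tested, and the normalization before deposit is unknown. The direction of the 5 called Zfp genes was kept under each alternative run. Over all genes, 133 were lower and 93 higher, and of the 110 Zfp genes 4 lower and 1 higher. Quantile normalization gave 147 genes higher and 3 Zfp genes higher. Averaging the probe sets of a gene gave 2 Zfp genes higher, with Zfp945 at -0.30 (limma adjusted p = 0.19), and leaving out less specific probe sets gave 0, with Zfp622 at 0.48 (limma adjusted p = 0.0957). Array weights gave 932 genes lower and 712 higher, and 25 Zfp genes lower and 8 higher; they set wildtype array 5 to 0.359 and knockout arrays 3 and 4 to 0.323 and 0.314. With Xist as covariate 1 gene was lower and 8 higher, with 1 Zfp gene lower and 0 higher. At a threshold of 0.10, 389 genes were lower and 182 higher, with 9 and 3 Zfp genes. Floors of 5 and 6 and no floor gave 2, 0 and 7 Zfp genes lower. Without wildtype array 5 and knockout array 4 together, 2 Zfp genes were higher. Leaving out 1 array gave 33 to 181 genes lower and 29 to 127 higher, 2 to 4 Zfp genes lower and 0 to 2 higher, and a median of -0.21 to -0.11. Over all alternatives the median of the Zfp genes stayed under 0 (-0.22 to -0.07). Zfp790, at -0.04, turned to 0.01 (quantile normalization), 0.08 (array weights), 0.08 (replicate block), 0.01 (without wildtype array 4), 0.08 (without wildtype array 5) and 0.01 (without both arrays), and Zfp185, at -0.16, to 0.10 (array weights), 0.04 (without knockout array 4) and 0.13 (without both arrays). Without 1 array at a time Zfp790 ran from -0.16 to 0.08 and Zfp185 from -0.25 to 0.04. The cause was not tested.

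The groups share replicate numbers 1 to 4, and the deviations of arrays with the same number correlated at -0.19, -0.09, -0.26 and 0.21. Those of knockout and wildtype arrays with different numbers correlated at -0.29 to 0.18. So few values cannot decide whether a shared number marks a pairing, and the labels only call the arrays biological replicates. With the replicate block, 76 genes were lower and 43 higher, with 4 Zfp genes lower and 0 higher, and Zfp622 differed by 0.79 (limma adjusted p = 0.0595).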
